A study of Mus musculus with 9 samples.

Results

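A set of genes that mark retinal ganglion cells and other long-axon projection neurons were followed in mouse cells on 9 arrays, in 3 groups of 3. The members are the genes Pou4f1, Pou4f2, Isl1, Rbpms, Sncg, Nefl, Nefm, Gap43, Ebf1 and Slc17a6, 10 in all, and the measured unit was every array probe set that the platform annotation gives to exactly 1 of these symbols. The rule used names and no measured value. It found 20 of the 45101 probe sets, for 9 of the 10 genes. No probe set was listed under Pou4f2 alone, and Pou4f2 was not analysed here. After a filter on dim probe sets, 19 of the 20 remained, and all 9 genes were among the 13320 genes tested.

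The groups compared progenitors made in culture with progenitors taken from the eye. Untreated ESC-RPCs are cells labelled as retinal progenitors that were differentiated from the mouse embryonic stem cell line 46C, made by gene targeting in E14Tg2a.IV cells. Their embryoid bodies formed over 3 days with SB431542, which blocks Nodal signalling, and were plated on Matrigel in medium without retinoic acid. Cells positive for the neural gene Sox1 (35.8%) were sorted at day 7 and then grown with 10 µM DAPT, an inhibitor of the protease that activates Notch, and 20 ng/ml bFGF. DKK1-treated ESC-RPCs shared all of these steps and also received 1 ng/ml recombinant DKK1, a secreted antagonist of Wnt signalling, for 1 day. Primary RPCs were taken at postnatal day 1 from C57 mice, by dissociating the neural retina, and their source label calls them cultured. All ESC-RPCs derive from 1 line on another strain background than the primary cells, so line, strain, culture and developmental stage cannot be told apart in any comparison with the primary cells. The labels call the 3 arrays of each group biological replicates, without saying whether cultures, litters or pools of animals were separate, so p-values measure the spread between these arrays. In the series' own design text the ESC-RPCs stand for an early stage without DKK1 and a later one with it, and primary RPCs serve as the negative control.

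Ganglion cells are the output neurons of the retina and the first retinal neurons to be born. Progenitors that switch on the basic helix-loop-helix factor Atoh7 can become ganglion cells, and Pou4f2 and Isl1 then drive the ganglion cell programme, which includes Pou4f1, axonal proteins and the vesicular glutamate transporter Slc17a6. On the day of birth most mouse ganglion cells already exist, while late progenitors are making rods, bipolar cells and late amacrine cells. None of the members is exclusive to ganglion cells. Pou4f1 and Isl1 are also made by peripheral sensory neurons, and Isl1 by motor neurons, amacrine cells and bipolar cells. Ebf1 is made in mesenchyme and blood cells, Rbpms in smooth muscle, Slc17a6 in many subcortical glutamatergic neurons, and neurofilaments and Gap43 in most neurons with long axons.

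The sequences shown here are promoters of members, 150 bases that end just before the annotated start of the gene, from RefSeq on GRCm38.p6. They are shown because Atoh7 and related factors bind E-boxes (CANNTG), and the printed genes include members that differed from the primary cells in opposite directions. Every printed window holds a CANNTG, and the Pou4f2, Slc17a6 and second Ebf1 entries are not printed. Pou4f1, Isl1 and Sncg were lower in ESC-RPCs, and Ebf1 was higher. Capitals mark each CANNTG, and bases are counted back from the start.
Pou4f1, chr14:104468000-104468149, minus strand: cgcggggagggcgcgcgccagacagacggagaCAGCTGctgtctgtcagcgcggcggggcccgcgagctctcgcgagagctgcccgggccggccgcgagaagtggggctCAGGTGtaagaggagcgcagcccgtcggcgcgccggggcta
Isl1, chr13:116309689-116309838, minus strand: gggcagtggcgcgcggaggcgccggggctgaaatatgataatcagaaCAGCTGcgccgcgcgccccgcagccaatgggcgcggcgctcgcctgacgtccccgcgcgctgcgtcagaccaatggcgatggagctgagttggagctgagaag
Sncg, chr14:34374670-34374819, minus strand: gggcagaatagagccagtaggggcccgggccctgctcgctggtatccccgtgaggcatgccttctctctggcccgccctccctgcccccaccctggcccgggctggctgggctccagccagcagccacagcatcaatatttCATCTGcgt
Ebf1, chr11:44620078-44620227, plus strand: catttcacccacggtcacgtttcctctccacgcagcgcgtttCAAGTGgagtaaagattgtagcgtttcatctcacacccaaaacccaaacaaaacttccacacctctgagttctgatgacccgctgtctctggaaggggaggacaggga
The Pou4f1 window held CAGCTG from 118 to 113 bases and CAGGTG from 41 to 36 bases before the start. The Isl1 window held CAGCTG from 103 to 98 bases before it, the Sncg window CATCTG from 9 to 4 bases, and the Ebf1 window CAAGTG from 108 to 103 bases. A second Ebf1 entry and the Pou4f2 entry held no CANNTG, and each of 2 Slc17a6 entries held 1. The table held entries for 6 of the 10 members, 8 entries in all, of which 6 held CANNTG. Among 32851 windows of this length, 47.7% held CANNTG, which reads the same on both strands, and 8.39% held CAGCTG, which is also a CANNTG. These matches describe letters in the windows, and binding was not measured.

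Values are MAS5 intensities on a linear scale, which the authors deposited, and a level is comparable between arrays for 1 probe set but not between probe sets. A gene was represented by its brightest kept probe set. Differences are in log2 with their standard error (SE) from a limma fit of all 9 arrays, folds are taken from the log2 difference, and a gene was called at a Benjamini-Hochberg adjusted p below 0.05 over all 13320 genes. The 40th percentile of an array's intensities, below which a probe set is called dim here, was 45.6 to 47.7 on the ESC-RPC arrays and 44.7, 52.9 and 44.9 on primary arrays 1, 2 and 3. The 3-prime over 5-prime ratio of Actb, a sign of RNA quality, was 1.32 to 1.37 on ESC-RPC and 1.22 to 1.26 on primary arrays, and its part in the differences was not tested. Of 9 measured retinal progenitor genes, 7 were lower and 2 (Fgf15 and Sfrp2, named after their values were seen) higher in untreated ESC-RPCs than in primary RPCs. The eye field gene Six6 was near the dim level in untreated ESC-RPCs (46.0 ± 12.9, SD, n = 3) against 4386 ± 440.3 in primary cells. Rax, another eye field gene, named after its values were seen, was at 28.2 ± 21.4 against 3939 ± 943, so Six6 and Rax were at or near background in untreated ESC-RPCs. Dapl1 was dim there too. The other lower genes stayed well above the dim level: Six3 (1054 ± 435 against 6896 ± 488), Lhx2 (1379 ± 281 against 4048 ± 128), Ccnd1 and Hes1. Six3 and Hes1 were named after their values were seen. Of 7 measured photoreceptor genes 6 were lower, and of 6 microglial genes 4. Of 8 neural progenitor genes 4 were higher and 2 lower. Sox1, on which the cells had been sorted, was at 2831 ± 59.8 in untreated ESC-RPCs and dim on all 3 primary arrays.

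Against the primary cells, the ganglion cell genes split. Of the 9 measured members 6, namely Pou4f1, Isl1, Rbpms, Sncg, Nefl and Nefm, were lower in untreated ESC-RPCs. Ebf1 and Slc17a6, 2 members, were higher, and Gap43 was the 1 that did not pass the test. Among all 13320 genes 53% passed in this comparison, 26.9% lower and 26.1% higher, so 8 of 9 members stands beside a background in which most genes passed. The groups did not overlap for 8 of 9 members and for 60% of all genes. The median log2 difference was -0.75 over the members and -0.01 over all genes, and the median size of the difference was 1.03 against 0.44. The member median of -0.75 is the Rbpms value on its brightest set. As the Rbpms sets gave no single direction, its place among the lower members, also with DKK1, rests on that set. In DKK1-treated ESC-RPCs against the same primary arrays, 6 members were lower, 1 (Ebf1) was higher and 2 did not pass, where 52.8% of all genes passed, 26.8% lower and 26% higher. The groups did not overlap for 7 of 9 members and for 59.2% of all genes. Both comparisons share the primary arrays, so their values are given side by side and do not support each other. In RNA from a bulk of cells, fewer cells of a type and less RNA per cell cannot be told apart.

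**Figure D1:**
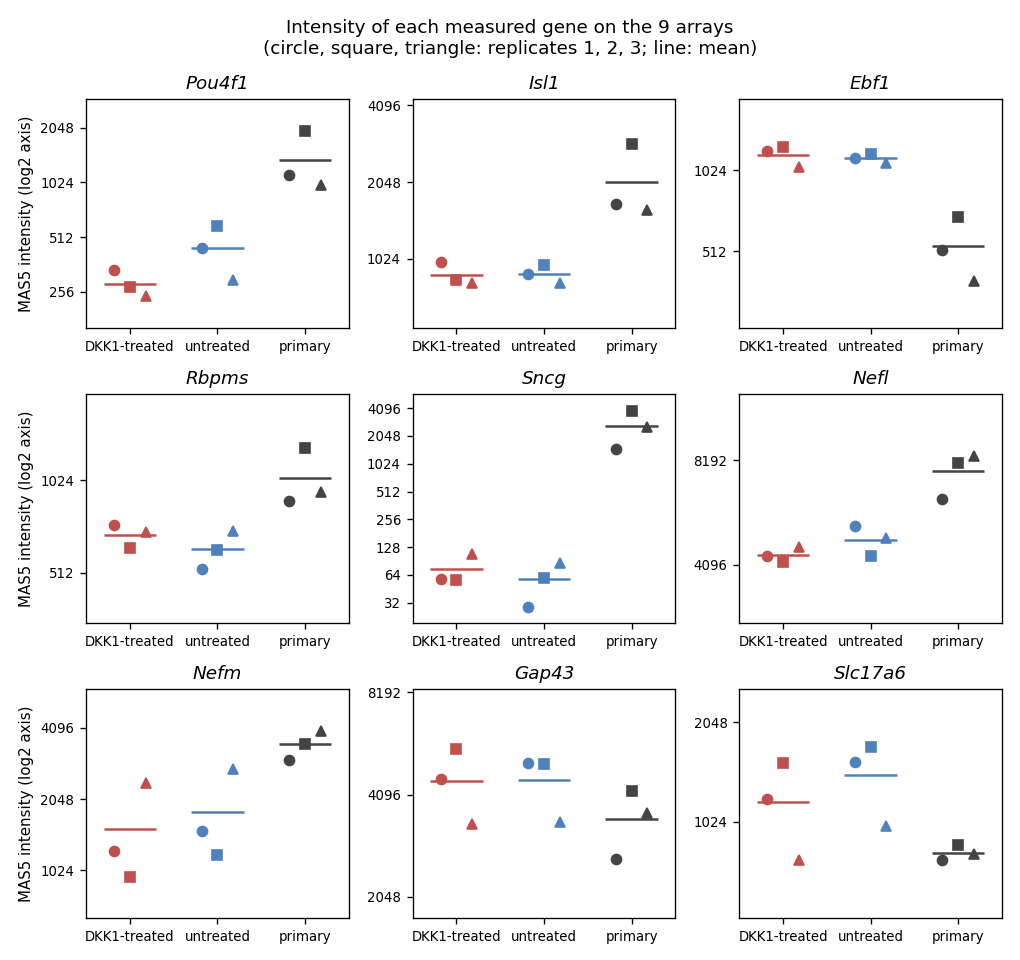
MAS5 intensity (log2 axis, arbitrary units) of the probe set representing each of the 9 measured genes, by group; circle, square and triangle are replicates 1, 2 and 3 and the line is the arithmetic mean. Sncg shows the widest gap, with all ESC-RPC arrays at 108 or less and all primary arrays at 1475 or more, while the Gap43 groups overlap.

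Of the transcription factors, Pou4f1, a POU domain factor of ganglion and sensory neurons, gave intensities of 1119, 1952 and 986 on primary arrays 1, 2 and 3. The corresponding values were 444, 590.3 and 295 in untreated and 336, 271 and 242 in DKK1-treated ESC-RPCs. Every ESC-RPC array was below every primary array, and primary array 2 was the highest. Pou4f1 was 3.03-fold lower in untreated ESC-RPCs (log2 difference -1.60, SE 0.29, limma adjusted p = 0.000943) and 4.60-fold lower in DKK1-treated ones (-2.20, SE 0.29, adjusted p = 0.000111). Its second probe set, 1429667_at, showed a wider gap, with 1444, 2643 and 1590 on the primary arrays and 138 to 200.1 on the 6 ESC-RPC arrays. The differences for that set were -3.37 and -3.58 (SE 0.22 each). The 2 probe sets therefore gave one direction and different sizes.

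Isl1, a LIM-homeodomain factor that acts with Pou4f2 in ganglion cells, was at 1672, 2886 and 1588 on the primary arrays. It was at 893, 968 and 818 in untreated and at 996, 845 and 819 in DKK1-treated ESC-RPCs. The ESC-RPC arrays lay close together and below all primary arrays. Isl1 was 2.21-fold lower without DKK1 (log2 difference -1.15, SE 0.20, adjusted p = 0.000756, limma) and 2.23-fold lower with it (-1.16, SE 0.20, adjusted p = 0.000699). Unlike Sncg, Isl1 stayed well above the dim level in ESC-RPCs. Its second set, 1422720_at, gave 714, 1073 and 659 in primary, 293, 335 and 244 in untreated and 404, 454 and 331 in DKK1-treated cells, again with no overlap with the primary arrays.

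Pou4f1 and Isl1 are shared with other neurons, so the marker lists of those neurons are given beside them. A summed intensity adds the brightest probe set of each gene, so the brightest sets weigh most in it. For peripheral sensory neurons 7 of the 10 listed genes had a probe set, and their summed intensity was 537 to 619 in untreated, 541 to 576 in DKK1-treated and 1204 to 1423 in primary cells. Prph and Avil were dim on all ESC-RPC arrays, and Tlx3 and Runx3 on all primary arrays. For motor neurons the sum over 7 of 8 genes was 227 to 311, 179 to 302 and 390 to 566 in the same order, with Mnx1, Chat, Slc18a3 and Slc5a7 dim in all groups. For bipolar cells the sum over 9 of 10 genes was 861 to 960, 797 to 1066 and 1194 to 2132, and for amacrine and horizontal cells, over 14 of 14 genes, 8717 to 10763, 9628 to 13681 and 9829 to 12044. The part of these cells in the Pou4f1 and Isl1 differences was not tested.

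Ebf1, a helix-loop-helix factor of early neurons, mesenchyme and B cells, ran the other way. It was at 519, 684 and 399 on the primary arrays, at 1138, 1169 and 1083 in untreated and at 1207, 1247 and 1051 in DKK1-treated ESC-RPCs. All 6 ESC-RPC arrays were above all 3 primary arrays. The difference was 1.11 (SE 0.17, adjusted p = 0.000303, limma), or 2.17-fold, without DKK1, and 1.16 (SE 0.17, adjusted p = 0.00023), or 2.24-fold, with it. The other 3 kept sets gave 1.26, 1.20 and 0.52 without DKK1 and 1.21, 1.10 and 0.68 with it, all called when every kept probe set was fitted. The fifth, 1457441_at, was dim on every array (1.87 to 45.3) and was left out. Mesenchyme and mural cell markers differed too: over 13 genes their summed intensity was 20593 to 24330 in untreated, 20922 to 23872 in DKK1-treated and 5740.3 to 15190.4 in primary cells. Different genes weighed most in these sums, such as Col3a1 and Dcn in untreated cells (means 8541 and 3878) and Myl9 on primary array 2 (8749). Among the 12 of them tested, 7 were higher and 3 lower in untreated ESC-RPCs, and the collagen gene Col3a1 was at 8541 ± 796 (SD, n = 3) against 41.5 ± 17.1 in primary cells. The part of mesenchymal cells in the Ebf1 difference was not tested.

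Rbpms, an RNA-binding protein made in nearly all ganglion cells, depended on the probe set. The brightest, 1429359_s_at, gave 874, 1305 and 941 on the primary arrays, 525, 607 and 701 in untreated and 731, 618 and 693 in DKK1-treated ESC-RPCs. On this set all ESC-RPC arrays were below all primary arrays, with log2 differences of -0.75 (SE 0.16, adjusted p = 0.00292, limma) and -0.59 (SE 0.16, adjusted p = 0.0111). On 1455936_a_at the order turned, with 175, 197 and 138 in primary against 337, 294 and 296 in untreated and 369, 362 and 374 in DKK1-treated cells. The differences there were 0.87 (adjusted p = 0.000651) and 1.13 (adjusted p = 0.000109) in the limma fit of all kept probe sets. The set 1437161_x_at was also higher in ESC-RPCs, by 0.42 (adjusted p = 0.0497) and 0.60 (adjusted p = 0.0105), and 1425652_s_at gave -0.16 and -0.04, which did not pass. With the mean over its probe sets, Rbpms changed sign to 0.10 (adjusted p = 0.612) and 0.27 (adjusted p = 0.145), so these arrays give no single direction for Rbpms. Which transcripts each set reads was not examined. The mural and smooth muscle genes, which share cells with Rbpms, had no single direction either. In untreated ESC-RPCs Myl9 and Tagln were lower (-2.13 and -1.68), as was Rgs5, by at least 9.93-fold, since it was dim on all 3 arrays. Pdgfrb was higher (2.31), and Acta2 (-0.049, adjusted p = 0.773) and Des (0.39, adjusted p = 0.314) did not pass. These genes were named after their values were seen, and their part in the Rbpms values was not tested.

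**Figure D2:**
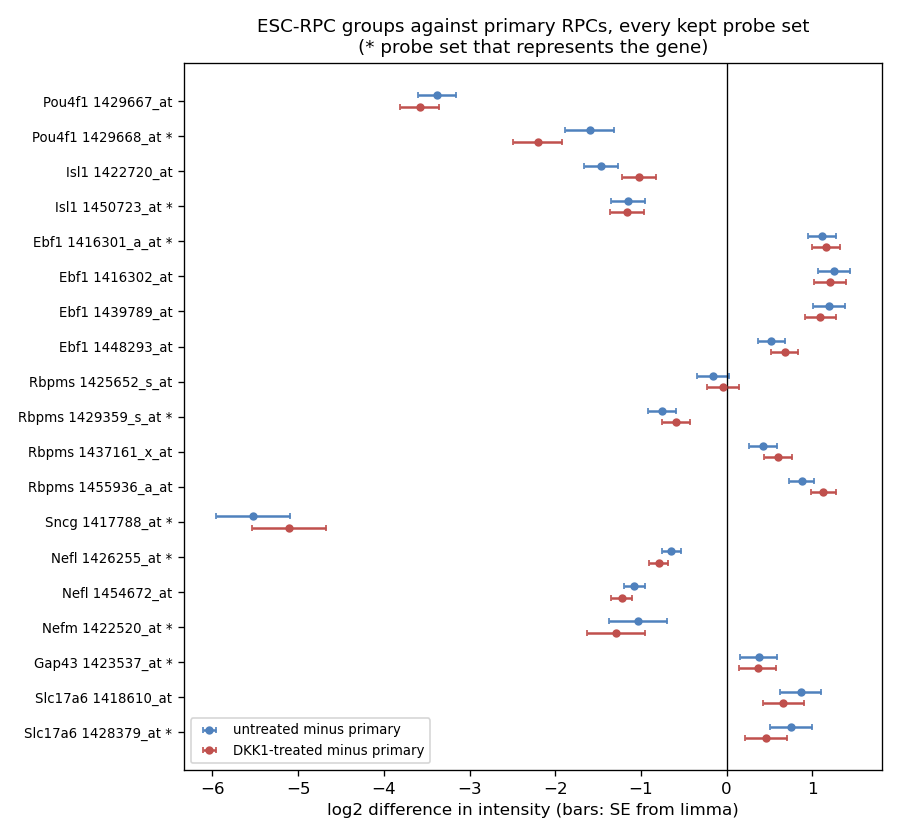
Log2 difference in intensity from primary RPCs for each of the 19 kept probe sets, in untreated (blue) and DKK1-treated (red) ESC-RPCs, with bars of 1 SE from limma and an asterisk on the set representing the gene. The sets of Pou4f1, Isl1, Ebf1, Nefl and Slc17a6 lie on 1 side of zero for each gene, while those of Rbpms run from -0.75 to 0.87 in untreated cells.

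Sncg, gamma-synuclein, a small protein abundant in ganglion cells and sensory neurons, had the largest difference of the 9 members. It was at 1475, 3858 and 2538 on the primary arrays, at 28.7, 59.5 and 85.9 in untreated and at 57.9, 56.3 and 108 in DKK1-treated ESC-RPCs. The ESC-RPC values were close to the dim level, and untreated array 1 was below it, whereas every primary array was far above. The log2 difference was -5.53 (SE 0.44, adjusted p = 3.36e-06, limma), or 46.2-fold, without DKK1 and -5.11 (SE 0.44, adjusted p = 5.97e-06), or 34.5-fold, with it. These folds rest on ESC-RPC values near background, where the size of a fold is poorly determined, so a constant of 32 was added as an alternative, which gave -4.83 and -4.58. Sncg had 1 probe set, so its difference rests on that set alone.

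The neurofilament genes Nefl and Nefm encode the light and medium subunits of the axonal intermediate filament, and they lie next to each other in the RefSeq gene order. Nefl was at 6349, 8059 and 8459 on the primary arrays, at 5307, 4333 and 4899 in untreated and at 4356, 4175 and 4606 in DKK1-treated ESC-RPCs. It was 1.57-fold lower without DKK1 (log2 difference -0.65, SE 0.11, adjusted p = 0.000721, limma) and 1.73-fold lower with it (-0.79, SE 0.11, adjusted p = 0.00019), with no overlap of groups. The second Nefl set gave larger differences, -1.08 and -1.22. Both Nefl sets stayed far above the dim level in ESC-RPCs.

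Nefm was at 3002, 3516 and 3969 on the primary arrays, at 1500.3, 1185 and 2740.2 in untreated and at 1235, 964 and 2392 in DKK1-treated ESC-RPCs. Replicate 3 of each ESC-RPC group stood well above its 2 companions, though still below the primary arrays. Nefm was 2.05-fold lower without DKK1 (log2 difference -1.03, SE 0.34, adjusted p = 0.0267, limma) and 2.45-fold lower with it (-1.29, SE 0.34, adjusted p = 0.0091). The call without DKK1 was lost when 1 array was left out, namely untreated replicate 1 (-0.95, adjusted p = 0.0806), untreated replicate 2 (-0.78, adjusted p = 0.108), primary replicate 2 (-1.03, adjusted p = 0.0527) or primary replicate 3 (-0.94, adjusted p = 0.0778). The heavy subunit gene Nefh, from the list of axonal genes and named after its values were seen, was also lower (117 ± 19.7 against 259 ± 42.5, SD, n = 3, log2 difference -1.15, adjusted p = 0.00123).

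Gap43, a growth cone protein of extending axons, did not pass in either comparison. Its intensities were 2657, 4184 and 3607 on the primary arrays, 5086, 5038 and 3407 in untreated and 4561, 5573 and 3355 in DKK1-treated ESC-RPCs. The third array of each ESC-RPC group fell within the primary range, so the groups overlapped. The log2 differences were 0.37 (SE 0.22, adjusted p = 0.179, limma) and 0.36 (SE 0.22, adjusted p = 0.19).

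Slc17a6, the vesicular glutamate transporter VGLUT2, was higher in untreated ESC-RPCs. It was at 782, 872 and 818 on the primary arrays and at 1552, 1718 and 996 in untreated ESC-RPCs, with no overlap, for a difference of 0.75 (SE 0.24, adjusted p = 0.0249, limma), or 1.68-fold. DKK1-treated cells gave 1197, 1540.3 and 785, and the third of these lay inside the primary range. Their difference of 0.46 (SE 0.24, adjusted p = 0.139) did not pass, but it passed without DKK1-treated replicate 3 (0.72, adjusted p = 0.0204) and with a replicate block on 9 arrays (0.46, adjusted p = 0.047), a block that also groups the primary arrays by numbers that did not pair them. The call in untreated cells was lost without untreated replicate 1 (0.67, adjusted p = 0.0824), untreated replicate 2 (0.59, adjusted p = 0.0988), primary replicate 1 (0.71, adjusted p = 0.0671) or primary replicate 3 (0.75, adjusted p = 0.055). The second set, 1418610_at, gave 335, 375 and 275 in primary, 705, 653 and 452 in untreated and 561, 675 and 362 in DKK1-treated cells, with differences of 0.86 (adjusted p = 0.0112) and 0.66 (adjusted p = 0.0377) in the fit of all kept probe sets. The difference between the 2 ESC-RPC groups in Slc17a6 is given with the other DKK1 values.

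Other genes of the ganglion cell pathway were read from a list of 20, of which 16 were tested. In untreated ESC-RPCs 7 were lower, 4 higher and 5 did not pass, with a median difference of -0.69, or -0.66 with dim genes set at the dim level, against -0.01 for all genes. In DKK1-treated cells 9 were lower and 4 higher (median -1.07, or -0.67 with dim genes at that level). Atoh7, the factor that lets progenitors become ganglion cells, was at 5029, 4085 and 2878 on the primary arrays and at 59.1 ± 17.3 (SD, n = 3) in untreated ESC-RPCs (log2 difference -6.08, SE 0.24, adjusted p = 2.29e-08, limma). Like Sncg, Atoh7 was near the dim level in ESC-RPCs. Isl2, a LIM-homeodomain relative of Isl1 named after its values were seen, was at 68.6 ± 24.2 against 478 ± 112 (-2.85, adjusted p = 1.51e-05). Ebf2, a relative of Ebf1, was higher like Ebf1, at 986 ± 21.7 against 123 ± 22.7 (3.02, adjusted p = 2.13e-07). Dlx1 and Dlx2, homeobox genes of ganglion cell development that forebrain inhibitory neurons also use, were at 1473 ± 393 against 124 ± 51.1 and at 860 ± 186 against 172 ± 41.5. The fourth higher gene, named after its values were seen, was Ebf3 (0.54, adjusted p = 0.00751).

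General neuronal genes did not share one direction. Of 25 pan-neuronal and axonal genes tested, 9 were higher in untreated ESC-RPCs, 7 lower and 9 did not pass, with a median of 0.03, and in DKK1-treated ESC-RPCs against the same primary arrays 9 were also higher and 7 lower. Tubb3, neuronal beta-tubulin, was at 9156 ± 588 against 2605 ± 55.3 in primary cells (log2 difference 1.81, adjusted p = 4.76e-08, limma; SD, n = 3). Dcx, a microtubule protein of young neurons, was at 5272 ± 662 against 1027 ± 382 (2.41, adjusted p = 9.66e-06), and Elavl4, a neuronal RNA-binding protein, at 3489 ± 40.9 against 1113 ± 69.7 (1.65, adjusted p = 7.97e-08). Snap25, a synaptic release protein, was lower, at 1322 ± 214 against 6396 ± 704 (-2.28, adjusted p = 3.11e-06). In this bulk RNA Nefl and Nefm were therefore lower, as were 7 genes of the list. Tubb3, Dcx and Elavl4, among the 9 higher genes, ran the other way.

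Transmitter and amacrine or horizontal cell genes were read beside Slc17a6. Of 6 transmitter genes tested 3 were higher, 1 lower and 2 did not pass (median 0.48). Gad1, which makes GABA, was at 3682 ± 801 in untreated ESC-RPCs against 865 ± 396 in primary cells (SD, n = 3; log2 difference 2.19, adjusted p = 0.000244, limma), and Slc32a1, the vesicular transporter of GABA and glycine, differed by 0.96 (adjusted p = 0.0197). Th, the enzyme of dopamine synthesis, differed by 1.21 (adjusted p = 0.004, limma). Its level was low, at 95.6 ± 11.4 against 42.4 ± 13.1 in primary cells, which is near or below the dim level. Slc18a2, the vesicular monoamine transporter, differed by -0.87 (adjusted p = 0.00147, limma). Gad2, the other enzyme that makes GABA, did not pass (-0.15, adjusted p = 0.575) and was named after its values were seen. So Slc17a6, Gad1 and Slc32a1 were higher in untreated ESC-RPCs, and Gad2 was not called. Of 12 amacrine and horizontal cell markers, which share Gad1 and Slc32a1 with the transmitter list, 4 were higher and 5 lower (median -0.12). Lhx1, a horizontal cell factor also used in the brain and spinal cord, was at 1334 ± 236 against 46.4 ± 13.9, while Tfap2a and Prox1 differed by -2.33 and -1.53.

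**Figure D3:**
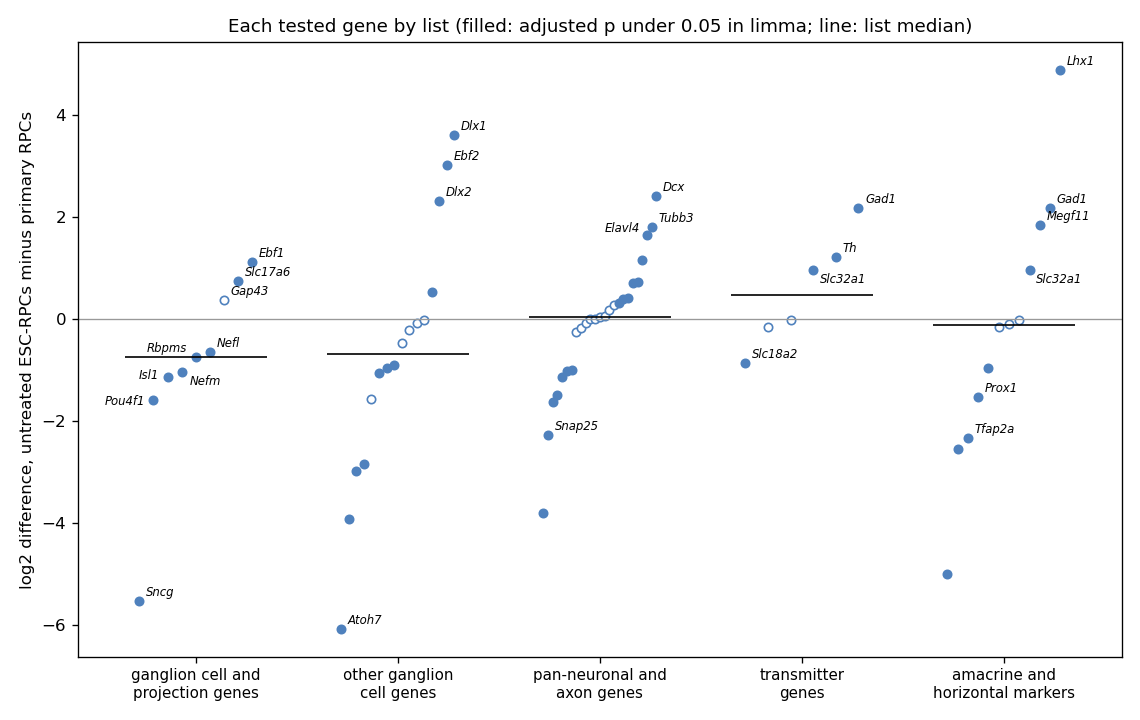
Log2 difference, untreated ESC-RPCs minus primary RPCs, of each tested gene in 5 lists (filled points: limma adjusted p below 0.05; open: not passed; line: list median). The members run from -5.53 (Sncg) to 1.11 (Ebf1) around a median of -0.75 (Rbpms on its brightest set), and the pan-neuronal list lies around 0.03.

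The remaining lists of neurons that share members were short. Of 7 tested sensory neuron markers 3 were lower and 2 higher in untreated ESC-RPCs (median -0.01). Ret, a receptor for glial-derived growth factors, differed by -2.36. The other named sensory genes were dim on all 3 arrays of 1 group, so a fold is a lower bound against those arrays' 40th percentiles. The filament gene Prph was at least 8.26-fold lower in untreated ESC-RPCs, and Tlx3 and Runx3, factors of sensory subtypes, were at least 2.59-fold and 1.39-fold higher. Of 3 motor neuron markers tested 1 was higher (Phox2a, dim on all primary arrays, at least 2.02-fold), 1 lower (Lhx4) and 1 did not pass. Lhx4 was at 37.0 ± 33.4 in untreated ESC-RPCs, near or below the dim level, against 324 ± 112 in primary cells (SD, n = 3). Of 6 bipolar markers 3 (Cabp5, Pcp2 and Lhx4) were lower and 1 (Grik1) higher (median -1.76, or -0.81 with dim genes at the dim level). Lhx4 stands in both the motor and the bipolar list.

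The remaining comparison asks what 1 day of DKK1 did to these genes, and 0 of the 9 members passed between DKK1-treated and untreated ESC-RPCs in the limma fit. On the sets that represent the genes, the count at an unadjusted p under 0.05 was also 0 of 9, and the groups overlapped for all 9. On other kept sets they did not overlap for Nefl 1454672_at (2402 to 2420 with DKK1, 2447 to 2834 without). Nor did they for Rbpms 1455936_a_at (362 to 374 and 294 to 337) and Ebf1 1448293_at (759 to 782 and 618 to 741). The share of all kept sets without overlap was not counted, and 0 of 24773 passed in their own fit. Over all genes 0 passed, 308 (2.31%) had an unadjusted p under 0.05 and 12% did not overlap. The median size of the difference was 0.16 over the members and 0.09 over all genes. For Isl1 the difference was -0.013 with a 95% interval from -0.45 to 0.43, for Gap43 -0.011 (-0.50 to 0.48) and for Ebf1 0.045 (-0.33 to 0.42). Rbpms gave 0.16 (-0.20 to 0.53), Nefl -0.14 (-0.39 to 0.10) and Slc17a6 -0.29 (-0.83 to 0.25). The intervals were wider for Pou4f1, at -0.60 (-1.24 to 0.03), Nefm, at -0.26 (-1.02 to 0.50), and Sncg, at 0.42 (-0.56 to 1.40). In the fit of all kept probe sets, the second Pou4f1 set gave -0.21 (SE 0.22) and the second Isl1 set 0.45 (SE 0.20). Neither passed, and the 2 sets of Isl1 differ in this comparison. These intervals bound the differences and do not show that they are absent.

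Arrays with the same replicate number in the 2 ESC-RPC groups varied together, so differences within pairs are given too, on the probe set that represents each gene. Pou4f1 had lower values after DKK1 in 3 of 3 pairs, with log2 differences of -0.40, -1.12 and -0.29. Nefm (-0.28, -0.30 and -0.20), Slc17a6 (-0.37, -0.16 and -0.34) and Nefl (-0.28, -0.05 and -0.09) were also lower in 3 of 3. The second sets of Pou4f1 and Nefl were lower in 3 of 3 as well. By contrast, the second Slc17a6 set was higher after DKK1 in pair 2 (675 against 653). Sncg (1.02, -0.08 and 0.32), Rbpms (0.48, 0.03 and -0.02), Ebf1 (0.09, 0.09 and -0.04), Isl1 (0.16, -0.20 and 0.00) and Gap43 (-0.16, 0.15 and -0.02) did not keep 1 sign. The second Isl1 set, however, was higher after DKK1 in 3 of 3 pairs (404, 454 and 331 against 293, 335 and 244). So were Rbpms 1455936_a_at and Ebf1 1448293_at, while Ebf1 1439789_at was lower in 3 of 3. The remaining kept sets of Rbpms and Ebf1 did not keep 1 sign. How many of all genes or kept sets keep 1 sign in 3 of 3 pairs was not counted. These signs therefore have no background beside them and are not read as an effect of DKK1. In the paired limma fit of the 6 ESC-RPC arrays, with a replicate block, 0 of 9 members passed and 65 of 13320 genes (0.488%) did. That fit used only the set representing each gene. The adjusted p was 0.0608 for Nefm, 0.0719 for Slc17a6, 0.104 for Pou4f1 and 0.196 for Nefl, and 0.475 or more for the other members. Because the pairing was read from these same values, the p-values of this fit may be too small.

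The members' spread among ESC-RPC arrays varied with the replicate number. Replicate 3 was the lowest of the 3 arrays in both ESC-RPC groups for 5 of 9 members (55.6%), namely Pou4f1, Isl1, Ebf1, Gap43 and Slc17a6, against 23.2% of all genes. It was the highest in both groups for 2 members (22.2%), Nefm and Sncg, against 21.8% of all genes. Slc17a6 lay -0.53 and -0.47 from its group mean on replicate 3 in DKK1-treated and untreated cells, and Gap43 -0.39 and -0.38. Nefm lay 0.75 and 0.69 above, so Nefm and Slc17a6 ran in opposite directions on the same 2 arrays. Nefl, the other neurofilament member, lay only 0.07 and 0.02 above its group mean there. The pan-neuronal list moved with replicate 3: 23 of its 25 genes (92%) were lowest there in both groups, and its summed intensity was 97563 there against 113535 and 129770 on the other DKK1-treated arrays. In untreated cells the sums were 115918, 122714 and 97214 on replicates 1, 2 and 3. Of the 8 neural progenitor markers 0 were lowest on replicate 3 in both groups and 4 were highest there. The part of cell composition in these shifts was not tested.

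**Figure D4:**
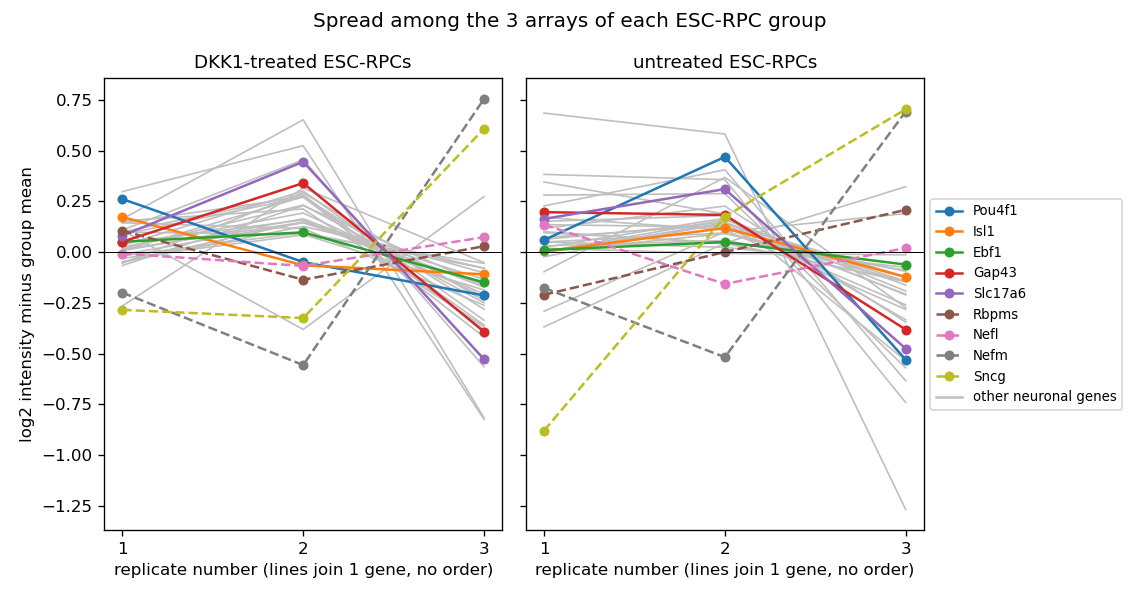
Log2 intensity minus the mean of the 3 arrays of the group (y) by replicate number (x) in DKK1-treated and untreated ESC-RPCs; coloured lines are the 9 members and grey lines the pan-neuronal list. Solid coloured lines mark the 5 members lowest on replicate 3 in both groups, and Nefm reaches 0.75 and 0.69 there.

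Among the primary arrays, replicate 2 was the highest for 7 of 9 members (77.8%), the exceptions being Nefl and Nefm, against 40.1% of all genes. The median intensity over all probe sets was also highest on it, at 83.8, 96.9 and 84.5 on primary arrays 1, 2 and 3. Of 12 mesenchyme and mural genes tested 8 (66.7%) were highest there. The summed intensity of that list was 5740.3, 15190.4 and 5952 on the 3 arrays. Myl9, at 1901, 8749 and 1916, weighed most in the sum on array 2. Of 16 other ganglion cell genes 10 were highest on that array. Without primary replicate 2 the differences in untreated ESC-RPCs were -1.30 for Pou4f1, -0.87 for Isl1, -5.20 for Sncg, -0.58 for Rbpms and 1.31 for Ebf1, and all 5 were still called. The part of mural cells in the primary values was not tested.

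The genes whose pattern over the 9 arrays was most like each member's were found by the root mean square difference of log2 profiles, each centred on its own mean. Gap43 had the closest, Nrxn2 (0.0681), a presynaptic adhesion gene, followed by Cyria (0.117) and the sodium channel gene Scn8a (0.128). Slc17a6 was nearest to Amer3 (0.152), Psd2 (0.154) and Marchf9 (0.171). Isl1 was nearest to Ccdc85b (0.0822), then B3gnt5 and Cep41, and Ebf1 to Dusp18 (0.108), then Ddit4 and Gas2l1. Rbpms was nearest to Irf2bp2 (0.0942), then Zbtb21 and Gpr180, and Nefl to Bcl2l13 (0.0870), then Fbxl12 and 2310011J03Rik. Pou4f1 was nearest to Chac1 (0.211), then 4930507D05Rik and Ahnak2, and Nefm to Itga4 (0.255), then Ctse and 1700040D17Rik. For Sncg the nearest was Krt73 (0.474), then Myb and Clec2l. These distances describe likeness over 9 arrays that share 3 groups.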

How the data were processed

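RNA from 9 mouse samples was hybridised, 1 array each. The deposited values are linear intensity values made by the authors with MAS5, per the submitters' processing notes, with no version or setting given in the sources used here. In every deposited column the mean after trimming 2% at either end was 500.003. Arrays give no read depth, and their number, 3 a group, limits the precision.

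Control probe sets (64) and those with several genes (932) or no gene (9160) in the platform annotation were set aside, and no symbol needed updating through its gene ID. Log2 was taken with no further normalisation. Probe sets were kept if 3 or more arrays had them above that array's 40th percentile (29052, of which 24773 had 1 gene), and each of 13320 genes was represented by the brightest, by mean log2. limma 3.58.1 in R 4.3.3 fitted 1 mean per group to all 9 arrays, with an intensity trend, two-sided tests and Benjamini-Hochberg adjustment at 0.05. A second fit of all kept probe sets gave the values of single sets. The script was tested on simulated data. No genome build is named in the labels, so coordinates are those of the RefSeq promoter table alone.

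Same-numbered DKK1-treated and untreated arrays correlated in their deviations from the group means, across genes, at 0.123, 0.195 and 0.318, and differently numbered ones at -0.234 to 0.0681. These arrays were therefore treated as pairs, on the values and not on the labels. The paired fit used the same values, so its p-values may be too small. Same-numbered correlations with primary arrays were -0.0433 to -2.36e-06, and those were not paired. The text names all members, up to 4 genes per list with the smallest adjusted p in untreated minus primary, a fixed few (Atoh7, Tubb3, Dcx, Sox1) and the nearest genes by pattern. Members, lists and tests were chosen with earlier results of these data known. Left-out arrays, probe set rules, filters, scalings, an added constant, the trend and the replicate block were tried as alternatives.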

Additional observations from a re-analysis of the deposited data

How the results depend on the processing

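The number of members called was 8 in untreated and 7 in DKK1-treated ESC-RPCs against primary cells, and 0 between the ESC-RPC groups. It stayed within 6 to 8, 6 to 8 and 0 over 19, 19 and 20 alternatives. The values that changed sign came from the mean over a gene's probe sets, which gave Rbpms 0.10 and 0.27 against primary cells and Isl1 0.22 between the ESC-RPC groups, and from left-out arrays in that last comparison, where no member passes. There, leaving out each replicate in turn gave ranges of -0.00344 to 0.12 for Ebf1, -0.20 to 0.18 for Gap43, -0.10 to 0.047 for Isl1, -0.64 to 0.088 for Nefm and -0.020 to 0.77 for Sncg. The replicate block on 9 arrays, a setting apart from the paired fit of the 6 ESC-RPC arrays, called 8, 8 and 0 members. The added one was Slc17a6 in DKK1-treated cells, and no other member's call changed. That block also ties the primary arrays to numbers that did not pair them. Without the intensity trend the Nefm call in untreated cells was lost (adjusted p = 0.0557, limma). With arrays set to one median, all genes called in untreated cells split 3657 higher and 2907 lower, in place of 3482 and 3578. With no filter 38.6% of 18193 genes were called. Signal over background limits Sncg, and the probe set chosen limits Rbpms.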
